A study of Mus musculus with 6 samples.

Results

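A list of 10 genes of antioxidant defence was followed in mouse articular cartilage at 2 and 18 months of age. It holds the superoxide dismutases Sod1, Sod2 and Sod3, catalase (Cat), the glutathione peroxidases Gpx1, Gpx3 and Gpx4, the gene of the transcription factor NRF2 (Nfe2l2), and Hmox1 and Nqo1, which are classical NRF2 targets. The members were taken by gene name from the 33971 genes of the expression table, and all 10 were found. The rule itself uses names alone, and the list was drawn up with earlier results of these data known. All 10 passed the filter on low counts.

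RNA sequencing was done on 3 libraries from mice aged 2 months and 3 libraries from mice aged 18 months, to ask how gene expression in articular cartilage changes with age. All 6 libraries are labelled as cartilage of WT mice, and no treatment is given for either age. The methods state that samples were independent, and they name hip and knee cartilage as the source of cultured chondrocytes. For these libraries the strain, the joints and the number of animals in each are not given in the sources used here, so p-values measure only the spread between these libraries.

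Superoxide dismutases turn superoxide into hydrogen peroxide in the cytosol (Sod1), in mitochondria (Sod2) and outside the cell (Sod3). Catalase removes hydrogen peroxide in peroxisomes, and glutathione peroxidases remove hydrogen and lipid peroxides with glutathione. NRF2 is held down by KEAP1 and, when released, switches on many of these and related genes through the antioxidant response element, a short DNA motif. In cartilage, chondrocytes live at low oxygen, and extracellular superoxide dismutase is known as a product of the chondrocyte that binds its matrix.

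Gpx1, Gpx3 and Gpx4 are selenoproteins, whose catalytic residue is selenocysteine, written in the gene as a TGA codon that elsewhere means stop. The 27 bases around that codon are printed for each enzyme because all 3 proteins depend on reading it, which links them to the selenium genes described further on. The letters are from the coding strand in GENCODE M21, build GRCm38, each stretch lies within a single exon, and the selenocysteine codon is in capitals:
Gpx1, codon 47 of 201, chr9:108339439-108339465, plus strand: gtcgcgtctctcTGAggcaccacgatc
Gpx3, codon 73 of 226, chr11:54907244-54907270, plus strand: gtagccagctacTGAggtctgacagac
Gpx4, codon 73 of 197, chr10:80054725-80054751, plus strand: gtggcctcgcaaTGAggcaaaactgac

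The core of the antioxidant response element, TGACNNNGC with N for any base, was searched on both strands of RefSeq promoter windows (build GRCm38.p6) that run from 250 bases before to 50 bases after a start site. Windows were at hand for 8 of the 10 genes, Hmox1 and Sod3 being without one, and 2 of the 8 held a match. The matches are shown because they lie in the gene of NRF2 itself and in Sod1, with the core in capitals. The sequence is that of the gene's own strand, and the Sod1 match reads on the opposite strand:
Nfe2l2, chr2:75704885-75704913, minus strand, 240 bases before the start: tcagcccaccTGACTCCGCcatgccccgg
Sod1, chr16:90220696-90220724, plus strand, 56 bases before the start: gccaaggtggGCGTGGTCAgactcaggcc
Of all 27025 genes with windows, 14.0% held at least 1 match, and of the 32851 windows, 12.4% did. A match describes the letters and says nothing of binding, and a window without a match says nothing of elements outside it.

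The libraries held 48171507 to 51683577 counts at 2 months and 55201357 to 59085179 at 18 months, and they differed in more than age. Xist, the RNA of the inactive X chromosome, had 88239 to 102417 counts at 2 months against 11 to 30 at 18 months, whereas the Y-linked genes Ddx3y, Kdm5d, Eif2s3y and Uty had at most 39 counts at 2 months and at least 1189 at 18 months. The methods name male mice and the 2-month libraries went against this, so age and sex cannot be told apart. The 16 chondrocyte markers together held 7.54% to 8.87% of all counts at 2 months and 0.195% to 0.846% at 18 months, and all 16 were called lower, beside 21.3% of all genes tested. Matn1 and Matn3, cartilage matrix genes, were at 0 in 18-month replicate 3. The 14 neutrophil markers held 0.00174% to 0.563% and 4.29% to 4.61%, with 13 higher and not overlapping, and the 11 erythroid markers 0.0258% to 0.670% and 2.73% to 3.60%, with 11 higher and not overlapping. Of all genes tested, 33.9% were higher and not overlapping and 14.9% were called higher. The 13 markers of monocytes and macrophages held 0.00603% to 0.118% and 0.617% to 0.812%, with 10 of the 12 tested higher and not overlapping. In edgeR's quasi-likelihood test 0 of the neutrophil, 4 of the erythroid and 4 of the monocyte and macrophage markers were called higher, and 3, 7 and 6 were higher at an unadjusted p below 0.05. DESeq2 called 11, 9 and 6 of them higher, limma on log2(FPKM + 0.1) called 13, 11 and 8, and edgeR without 2-month replicate 2 called 13, 11 and 10. Of all genes, these settings called 4414, 4365 and 5007 higher, against 3047 in edgeR with all libraries. Of the defining markers, Ly6g was at 0 in 2-month replicate 1, Elane and Cxcr2 in 2-month replicate 3. In bulk tissue, fewer cells of a type and less RNA per cell cannot be told apart.

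**Figure D1:**
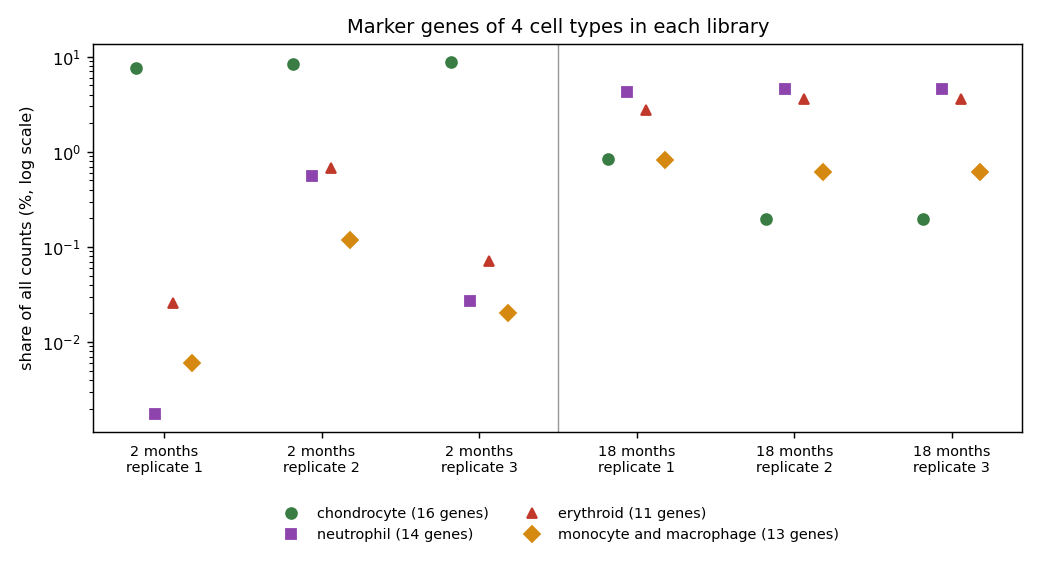
Share of all counts in each library (log scale, %) held by marker genes of chondrocytes, neutrophils, erythroid cells, and monocytes and macrophages; each point is 1 library. The chondrocyte share lay at 7.54% to 8.87% at 2 months and at 0.195% to 0.846% at 18 months, and the other 3 lists lay higher in every 18-month library.

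Libraries also stood apart within an age. By the median chi-square per gene, 2-month replicate 2 differed from replicates 1 and 3 by 45.2 and 34.4 times what counting alone gives, against 12.6 between replicates 1 and 3. At 18 months, replicate 1 differed from the others by 22.4 and 22.2 times, against 6.46 between replicates 2 and 3. For the members, and for the related genes named by the rule given further on, each library was also left out in turn. Where this changed the call or moved the fold by more than 1.5 times, the value without that library is given.

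Between the ages, 5 of the 10 antioxidant genes were called, at a Benjamini-Hochberg adjusted p below 0.05 in edgeR's quasi-likelihood test and a log2 fold change of more than 1 in either direction. Gpx1, Hmox1 and Nfe2l2 were called higher at 18 months, against 14.9% of the 20397 genes tested. Sod3 and Gpx3, the secreted enzymes, were called lower, against 21.3%. Cat, Gpx4 and Sod2 passed the limit on adjusted p with higher values at 18 months but not the limit on fold, and Sod1 and Nqo1 passed neither. In all, 8 of the 10 passed the limit on adjusted p, beside 51.3% of genes tested.

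In either direction, 36.3% of all genes tested were called, and a count of 5 among 10 members is read against that share. The median log2 fold change of the 10 genes was 0.64, beside −0.02 over all genes tested. The CPM of 8 members, that is their counts scaled to library size with TMM normalization, did not overlap between the ages, beside 68.6% of genes tested. Of these 8, 6 were higher at 18 months and 2 lower, beside 33.9% and 34.6%.

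**Figure D2:**
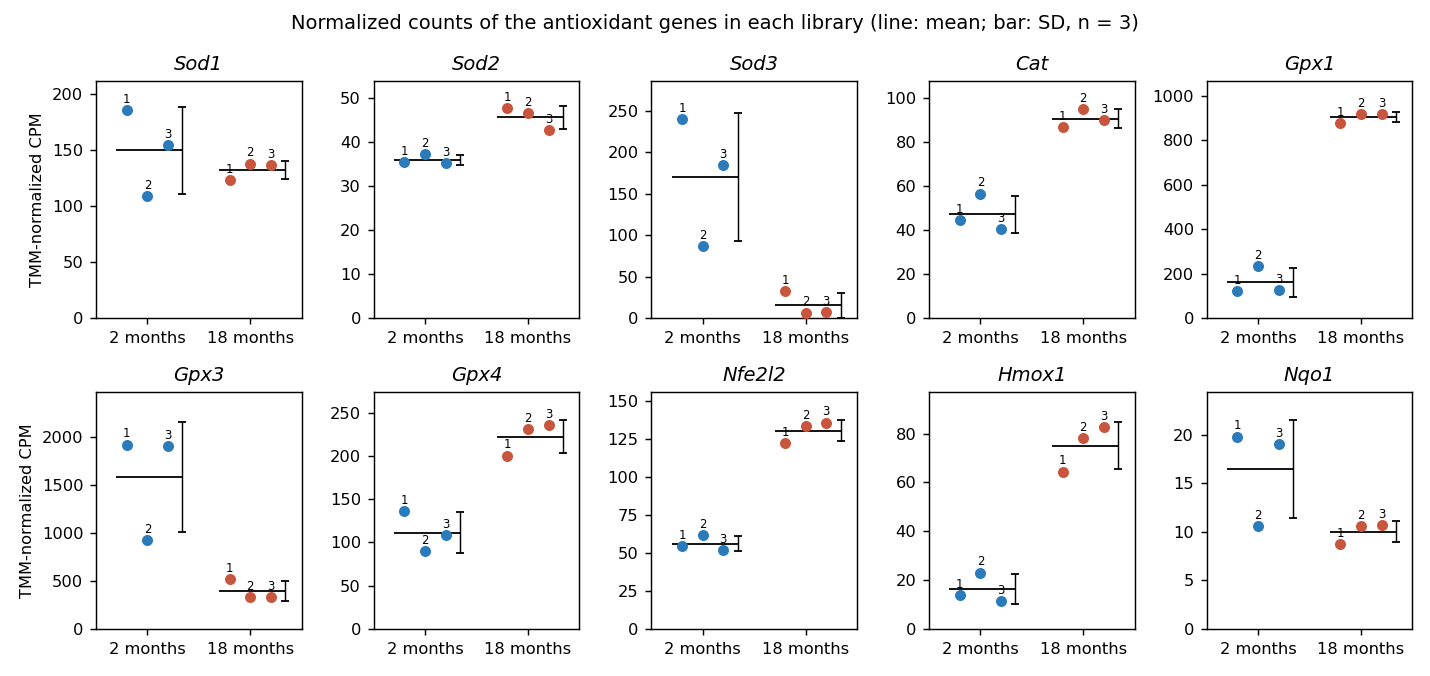
TMM-normalized CPM (linear axis from 0) of the 10 genes; each point is 1 library with its replicate number, the line is the mean and the bar the SD (n = 3). The ages overlap for Sod1 and Nqo1, and 2-month replicate 2 lies between the other 2-month libraries and the 18-month libraries for all of the others but Gpx4.

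**Figure D3:**
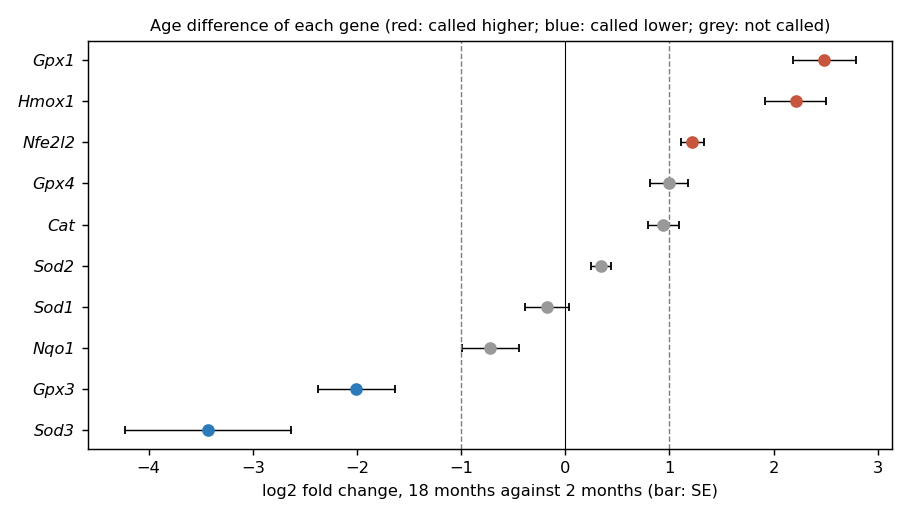
Log2 fold change of each gene, 18 months against 2 months, with its standard error; dashed lines mark the limit of 1 in each direction. The values run from −3.43 for Sod3 to 2.49 for Gpx1, and Gpx4 lies at 0.997, just under the limit.

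Sod3 (ENSMUSG00000072941, chromosome 5, 52363791 to 52371418, plus strand), the extracellular enzyme, fell the furthest. Its CPM values were 239.8, 87.4 and 185 in 2-month replicates 1, 2 and 3, and 33.1, 6.67 and 7.60 in 18-month replicates 1, 2 and 3. Every 18-month library lay below every 2-month library, and within each age 1 library stood apart, replicate 2 at 2 months on the low side and replicate 1 at 18 months on the high side. The difference was 10.8-fold (log2 fold change −3.43, SE 0.80, adjusted p = 0.0157).

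The spread of Sod3 was the widest of the 10 genes, with a coefficient of variation of 45.2% at 2 months and 95.0% at 18 months. Without 18-month replicate 1 the log2 fold change was −4.57, and without 2-month replicate 2 as well it was −4.88 (adjusted p = 0.000101). Without 18-month replicate 3 it was −3.09 with an adjusted p of 0.0530, so the call was lost. Sod3 was called lower in 19 of the 20 alternative analyses. The chondrocyte share was lower and the neutrophil and erythroid shares higher in every 18-month library, and their part in this difference was not tested.

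Sod1 (ENSMUSG00000022982, chromosome 16, 90220754 to 90226329, plus strand), the copper and zinc enzyme of the cytosol, showed no called difference. Normalized counts (CPM) were 186, 109 and 154 at 2 months and 123, 138 and 136 at 18 months. The 18-month values lay inside the 2-month range, which spanned 1.70-fold. The log2 fold change was −0.18 (SE 0.21, adjusted p = 0.506), and without 2-month replicate 1 it was 0.0093, on the other side of 0. Sod1 overlaps Scaf4 on the minus strand, and the strand setting of the counting is not given in the sources used here, so reads of the overlapping part may be shared.

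Sod2 (ENSMUSG00000006818, chromosome 17, 13006846 to 13037398, plus strand), the manganese enzyme of mitochondria, was the steadiest within the 2-month group. CPM was 35.5, 37.3 and 35.3 at 2 months and 47.7, 46.7 and 42.7 at 18 months. All 18-month libraries lay above all 2-month libraries, by 1.27-fold (log2 fold change 0.34, SE 0.094, adjusted p = 0.0264), which is under the fold limit. On TPM, which rescales the authors' FPKM to one total per library and shifts the median of all genes to −0.33, the Sod2 difference was −0.014.

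The makeup of the superoxide dismutases was compared by FPKM, the authors' values per length and depth, as each gene's share of the summed FPKM of the 3 genes. Sod3 held 56.0%, 42.8% and 53.8% at 2 months and 19.8%, 4.33% and 4.99% at 18 months. Sod1 went in share from 44.5% ± 5.08 to 79.5% ± 8.63 (SD, n = 3), and Sod2 from 4.58% ± 1.98 to 10.8% ± 0.438. Neither age overlapped the other for any of these shares.

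The summed FPKM of the family was 73.2 ± 22.6 at 2 months and 37.9 ± 2.83 at 18 months, but as CPM per kilobase of principal transcript the sum was 276 ± 66.7 and 224 ± 4.19, with overlap between the ages. These levels depend on the length used for each gene. The FPKM of Sod1 implied a length of 4519 bases, 7.05 times its principal transcript of 641 bases in GENCODE M21. Of this, a factor of 1.14 was shared by nearly all genes, Sod3 among them. The union of all Sod1 exons, 3970 bases, is what lowers its FPKM against the others. Per kilobase of principal transcript, Sod1 held 82.3% at 2 months and 94.4% at 18 months, and Sod3 15.4% and 1.98%. The order of the 3 genes then changed at 2 months, with Sod1 above Sod3, and the direction of each share with age did not.

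Within each library the Sod3/Sod1 ratio of FPKM, which does not depend on how libraries are scaled, was 1.37, 0.851 and 1.27 at 2 months and 0.286, 0.0513 and 0.0590 at 18 months. The log2 ratio differed by −3.58 (two-sided exact permutation test, p = 0.1, adjusted p = 0.12 over 6 ratios), and 3 libraries against 3 cannot give a p below 0.1. The Sod3/Sod2 log2 ratio differed by −4.07 (exact p = 0.1), also without overlap. Without 18-month replicate 1 these differences were −4.37 and −4.78. The Sod2/Sod1 log2 ratio differed by 0.49 with overlap (exact p = 0.3). Without 2-month replicate 2 it differed by 0.73 without overlap (exact p = 0.1, the smallest possible), and without 2-month replicate 1 by 0.30 (exact p = 0.5).

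**Figure D4:**
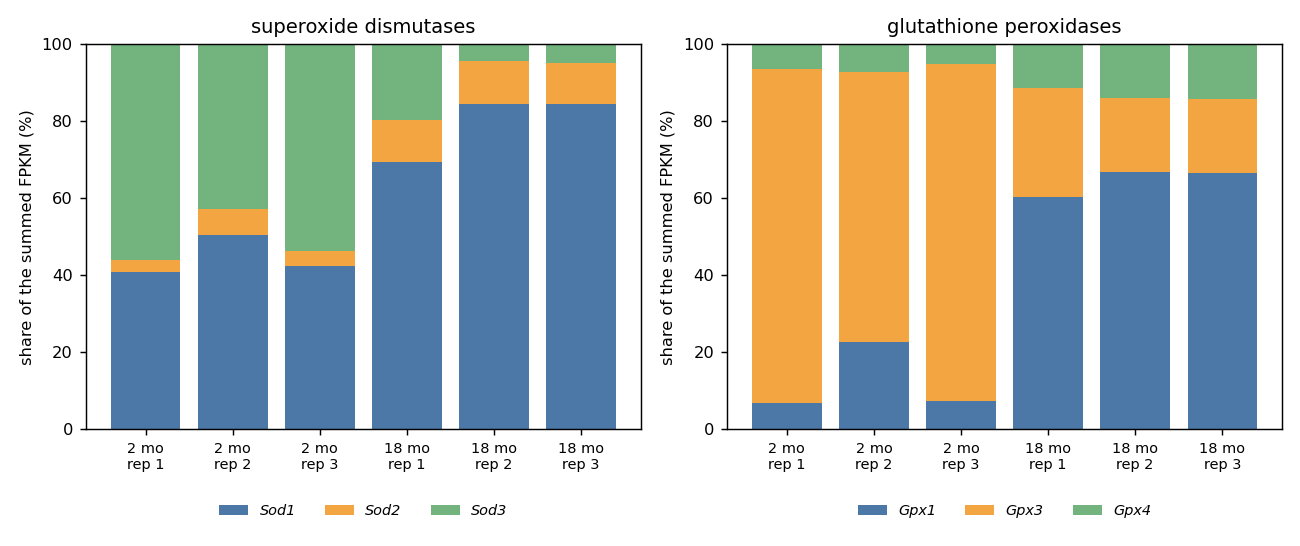
Share of the summed FPKM (%) held by each gene among the superoxide dismutases and among Gpx1, Gpx3 and Gpx4, 1 bar per library. Other glutathione peroxidases, such as Gpx7 and Gpx8, are not in the sum. Sod3 took 42.8% to 56.0% of the first set at 2 months and 4.33% to 19.8% at 18 months. Gpx3 took 70.3% to 87.4% of the second set at 2 months and 19.1% to 28.3% at 18 months.

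Cat (ENSMUSG00000027187, chromosome 2, 103453849 to 103485160, minus strand) was higher at 18 months in every library. In CPM, it stood at 44.4, 56.5 and 40.6 at 2 months and 86.8, 95.1 and 89.9 at 18 months. The 18-month values lay close together, and the 2-month replicate nearest to them was replicate 2. The difference was 1.92-fold (log2 fold change 0.94, SE 0.15, adjusted p = 0.00452). It lay just under the fold limit, and without 2-month replicate 2 it passed, at 1.12 (adjusted p = 0.000383).

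Gpx1 (ENSMUSG00000063856, chromosome 9, 108338903 to 108340343, plus strand), the main cytosolic glutathione peroxidase and an abundant protein of red cells, rose the most. Its CPM values were 121, 235.8 and 127 at 2 months and 877, 917 and 918 at 18 months. The 18-month libraries agreed to within a coefficient of variation of 2.63%, and at 2 months replicate 2 stood well above the others. The rise was 5.60-fold (log2 fold change 2.49, SE 0.30, adjusted p = 0.00227), and without 2-month replicate 2 and 18-month replicate 1 the log2 fold change was 2.90. It was called in all 20 alternative analyses. The erythroid share was 0.670% in 2-month replicate 2, at most 0.0706% in the other 2-month libraries and at least 2.73% at 18 months, and its part in the Gpx1 difference was not tested.

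Gpx3 (ENSMUSG00000018339, chromosome 11, 54902453 to 54910377, plus strand), the secreted glutathione peroxidase of plasma and extracellular fluid, fell. Normalized counts (CPM) were 1917, 923 and 1901 at 2 months and 518, 329.5 and 333 at 18 months. The ages did not overlap, and 2-month replicate 2 was again the lowest of its group and 18-month replicate 1 the highest of its own. The fall was 4.02-fold (log2 fold change −2.01, SE 0.37, adjusted p = 0.00726), and without these libraries the log2 fold change was −2.51. Gpx3 was called lower in all 20 alternative analyses.

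Gpx4 (ENSMUSG00000075706, chromosome 10, 80047166 to 80056439, plus strand), which removes lipid peroxides in membranes and protects cells from ferroptosis, was higher at 18 months without overlap. CPM was 136, 89.6 and 108 at 2 months and 200.2, 231 and 236 at 18 months. Unlike for Gpx1 and Cat, the 2-month library nearest to the 18-month libraries was replicate 1, and replicate 2 was the lowest. The difference was 2.00-fold (log2 fold change 0.997, SE 0.18, adjusted p = 0.00708), just short of the fold limit. It passed at 1.17 without 2-month replicate 1 and at 1.07 without 18-month replicate 1. It was called in 11 of the 20 alternative analyses.

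Among the 3 glutathione peroxidases, Gpx3 held 86.7%, 70.3% and 87.4% of the summed FPKM at 2 months and 28.3%, 19.1% and 19.2% at 18 months. Gpx1 went the other way, from 6.87%, 22.6% and 7.36% to 60.2%, 66.9% and 66.5%. Gpx4 went in share from 6.29% ± 0.973 to 13.3% ± 1.55 (SD, n = 3). The leading enzyme of these 3 therefore differed between the ages in every library, Gpx3 at 2 months and Gpx1 at 18 months.

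The summed FPKM of the 3 glutathione peroxidases was 884 ± 196 at 2 months and 875 ± 48.7 at 18 months, a smaller difference than the spread within the 2-month group. Per kilobase of principal transcript, the Gpx3 share went from 77.0% to 18.6% and the Gpx1 share from 13.6% to 63.8%. The Gpx3/Gpx1 ratio of FPKM was 12.6, 3.11 and 11.9 at 2 months and 0.470, 0.285 and 0.288 at 18 months, a difference of −4.52 in log2 (exact p = 0.1, the smallest possible), which was −5.18 without 2-month replicate 2. The Gpx3/Gpx4 log2 ratio differed by −2.98 and the Gpx4/Gpx1 log2 ratio by −1.54, both without overlap and with the same exact p.

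Nfe2l2 (ENSMUSG00000015839, chromosome 2, 75675513 to 75704641, minus strand), the gene of NRF2, was called higher at 18 months. In CPM, it stood at 54.6, 61.7 and 52.1 at 2 months and 123, 133 and 136 at 18 months. The libraries of each age lay close together, and its standard error was the second smallest of the 10 genes. It overlaps Gm24996 on the same strand. The rise was 2.33-fold (log2 fold change 1.22, SE 0.11, adjusted p = 0.00127). The call was lost in 3 of the 20 alternative analyses. On TPM the log2 fold change was 0.86, and with quantile-normalized FPKM it was 0.95. In a test against a fold of 2 the adjusted p was 0.0597.

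Hmox1 (ENSMUSG00000005413, chromosome 8, 75093621 to 75100589, plus strand), heme oxygenase, breaks down heme and is abundant in the macrophages that clear red cells. Its CPM values were 14.0, 23.1 and 11.5 at 2 months and 64.4, 78.02 and 82.8 at 18 months. The ages did not overlap, and 2-month replicate 2 was again nearest to the 18-month libraries. The rise was 4.64-fold (log2 fold change 2.21, SE 0.29, adjusted p = 0.00275), and it was called in all 20 alternative analyses. The share of monocyte and macrophage markers was 0.118% in 2-month replicate 2, at most 0.0204% in the other 2-month libraries, and 0.812%, 0.617% and 0.619% in 18-month replicates 1, 2 and 3. Replicate 1, with the highest of these shares, had the lowest 18-month Hmox1 CPM. The part of this share in the Hmox1 difference was not tested. Of these markers, Adgre1, Marco, Vsig4 and Cd5l were at 0 in 2-month replicate 1, Marco and Cd5l in 2-month replicate 3, and Marco in 18-month replicate 2.

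Nqo1 (ENSMUSG00000003849, chromosome 8, 107388225 to 107403206, minus strand), a quinone reductase and a classical NRF2 target, was not called. Normalized counts (CPM) were 19.8, 10.6 and 19.0 at 2 months and 8.76, 10.6 and 10.7 at 18 months. At 2 months replicate 2 had the value of the 18-month libraries, and the other 2-month replicates lay above all of them. The log2 fold change was −0.72 (SE 0.27, adjusted p = 0.0707), and without 2-month replicate 2 it was −0.93 (adjusted p = 0.00378), still under the fold limit. On TPM it was −1.02.

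By mean FPKM the order of the 10 genes at 2 months (mean ± SD, n = 3) was Gpx3 (733 ± 234), Gpx1 (96.8 ± 44.8), Gpx4 (54.7 ± 9.38), Sod3 (38.3 ± 16.01), Sod1 (31.9 ± 6.86), Cat (15.5 ± 3.65), Nfe2l2 (12.6 ± 1.85), Nqo1 (8.92 ± 2.38), Hmox1 (7.98 ± 3.50) and Sod2 (3.06 ± 0.273). Neighbours in this order that overlapped were Gpx4 and Sod3, Sod3 and Sod1, Cat and Nfe2l2, and Nqo1 and Hmox1.

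At 18 months the order was Gpx1 (564 ± 2.45), Gpx3 (196 ± 58.5), Gpx4 (116 ± 7.55), Hmox1 (38.5 ± 4.09), Cat (31.1 ± 1.03), Nfe2l2 (30.9 ± 1.01), Sod1 (30.0 ± 1.19), Nqo1 (5.77 ± 0.498), Sod2 (4.10 ± 0.310) and Sod3 (3.85 ± 3.74). Cat and Nfe2l2, Nfe2l2 and Sod1, and Sod2 and Sod3 overlapped as neighbours. Per kilobase of principal transcript Sod1 moved up, to rank 2 at 2 months and rank 4 at 18 months, and Gpx3 at 2 months and Gpx1 at 18 months stayed first.

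The order of the libraries within each age was that of many genes. 2-month replicate 2 was the 2-month library nearest to the 18-month mean for 8 of the 10 members, beside 59.6% of genes tested, and Sod1 and Gpx4 were the exceptions. 18-month replicate 1 was the 18-month library nearest to the 2-month mean for 7 of the 10, beside 48.6%. These counts are read against the shares over the whole table, and nothing particular to the members is drawn from them. The neutrophil, erythroid, and monocyte and macrophage shares of 2-month replicate 2 also lay between those of the other 2-month libraries and the 18-month libraries, whereas its chondrocyte share (8.31%) lay inside the 2-month range. The chondrocyte, neutrophil and erythroid shares of 18-month replicate 1 lay on the 2-month side of the other 18-month libraries, whereas its monocyte and macrophage share (0.812%) and its share of B lymphocyte and plasma cell markers (0.350%) were the highest of all libraries. The part of the marker shares in the differences of Sod2, Cat, Gpx3, Gpx4, Nfe2l2 and the related genes was not tested.

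The gene whose centred log2 CPM was closest to that of a member was sought among 4428 genes whose mean FPKM reached 10, by the root-mean-square difference over the 6 libraries. For Gpx1 it was Myl12b (0.0150), for Nfe2l2 Mfsd10 (0.0261), for Cat Uqcrq (0.0191), and for Hmox1 Cd24a (0.0849). For Sod3 it was Stk32b (0.139) and for Gpx3 Il11ra1 (0.101). For the others it was Eif3h (Sod1, 0.0342), Rtn4 (Sod2, 0.0319), Ap3s1 (Gpx4, 0.0658) and the pseudogene Bnip3l-ps (Nqo1, 0.0873). With 6 libraries, a close pattern says little beyond the age difference and the order of the libraries.

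Genes that work around the 10 members were described by 9 lists with 107 genes in all, of which 104 were tested. Over these lists 33 genes (31.7%) were called higher and 16 (15.4%) lower at 18 months, beside 14.9% and 21.3% of all genes tested, and their median log2 fold change was 0.36, which was 0.13 on TPM and 0.59 without 2-month replicate 2. The lists are described in the order of the pathway, with the values of genes named by a rule that takes the most abundant gene and the largest called rise and fall.

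Of 13 regulators and partners of NRF2, 1 was called higher and 3 lower, with a median of 0.03. Bach1, a repressor that competes for the antioxidant response element, rose from an FPKM of 4.74 ± 1.26 to 12.7 ± 0.503 (log2 fold change 1.36, adjusted p = 0.00233). Maff, a small MAF partner, fell from 8.04, 2.26 and 6.96 to 2.21, 1.27 and 1.16 (log2 fold change −2.01, adjusted p = 0.0285), and its highest 18-month value lay just below its lowest 2-month one. The call of Maff was lost without 2-month replicate 1 or 3 and without 18-month replicate 2 or 3 (adjusted p = 0.0740, 0.0833, 0.0958 and 0.0963, edgeR). The other genes called lower were Nfe2l1 and Nfe2l3, relatives of NRF2, at −1.98 and −1.52. The mean FPKM of Nfe2l3 over all libraries was only 0.366. The largest log2 fold change of the list, 4.54 for Nfe2, was not called (adjusted p = 0.0875, edgeR). Its FPKM was 0.0945, 9.04 and 0.0747 at 2 months and 68.5, 71.4 and 72.9 at 18 months. Leaving out 2-month replicate 1 or 3, or 18-month replicate 2 or 3, left 1 called lower. All genes called lower then numbered 3791, 3499, 3680 and 3687, against 4354 with all libraries. Leaving out 2-month replicate 2 gave 3 called higher, beside 5007 of all genes, against 3047. The median was −0.13 on TPM and −0.037 without 18-month replicate 1.

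Sqstm1, an autophagy receptor that binds KEAP1, was the most abundant gene of this list. Its FPKM was 77.4 ± 15.96 at 2 months and 43.9 ± 0.510 at 18 months (log2 fold change −0.91, adjusted p = 0.0141, under the fold limit), and without 2-month replicate 2 the log2 fold change was −1.06, past the limit. Keap1, named after its values were seen because its protein holds NRF2 down, had an FPKM of 12.05, 10.6 and 11.4 at 2 months and 10.5, 9.45 and 10.2 at 18 months (log2 fold change −0.26, adjusted p = 0.110). Its ages lay next to each other without overlap in CPM, and the difference was not called.

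Of 13 genes of glutathione synthesis and recycling, 5 were called higher and 2 lower, with a median of 0.77. Gsr, glutathione reductase, which restores the glutathione that the peroxidases use, was both the most abundant and the furthest risen. Its FPKM was 6.83, 31.7 and 7.79 at 2 months and 183, 221 and 218 at 18 months (log2 fold change 3.72, adjusted p = 0.00618), with 2-month replicate 2 above the other 2-month libraries, and without that library the log2 fold change was 4.73. The other genes called higher were Gclc and Gclm, the subunits of the first enzyme of glutathione synthesis, at 1.68 and 2.71, the cystine carrier Slc7a11 at 1.904, and Chac2 at 1.901. The mean FPKM of Slc7a11 over all libraries was only 0.241. Chac1, which breaks glutathione down, was called lower (log2 fold change −2.50, adjusted p = 0.00365), whereas its relative Chac2 was among those called higher. Oplah was also called lower, at −2.47. Gss, another gene of this list, was lower without overlap in CPM at −0.71 (adjusted p = 0.00673), under the fold limit.

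Of 16 glutathione transferases, 6 were called higher and 3 lower, with a median of 0.62. The most abundant, Gstm1, rose from an FPKM of 28.0 ± 3.25 to 81.7 ± 2.35 (log2 fold change 1.46, adjusted p = 0.00160). The microsomal Mgst1 rose the furthest, from 0.341, 7.45 and 0.844 to 55.1, 56.8 and 54.6 (log2 fold change 4.26, adjusted p = 0.0266), again with 2-month replicate 2 in between. Without that library the log2 fold change of Mgst1 was 6.43, and without any one of 2-month replicate 3 and the 18-month replicates its call was lost (adjusted p from 0.0601 to 0.0759, edgeR). Gstt3 fell the furthest (log2 fold change −2.16, adjusted p = 0.00342). Genes of this family resemble each other, and reads may be divided unevenly among copies.

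Among 5 other glutathione peroxidases, Gpx7 and Gpx8, which sit in the endoplasmic reticulum, were tested and both were called lower. Gpx8 fell from an FPKM of 92.9 ± 7.98 to 16.4 ± 3.66 (log2 fold change −2.58, adjusted p = 0.000901). Gpx7 fell from 21.3 ± 2.40 to 3.40 ± 0.0844 (log2 fold change −2.72, adjusted p = 0.000706). Gpx2 and Gpx5, with at most 23 and 4 counts in a library, did not pass the filter on low counts. Gpx6 was not found by name among the genes of the expression table. Of the 5 glutathione peroxidases tested in all, Gpx1 was thus called higher, Gpx3, Gpx7 and Gpx8 lower, and Gpx4 was not called.

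Of 17 peroxiredoxins and genes of the thioredoxin system, 7 were called higher and 1 lower, with a median of 0.77. Txnip, an inhibitor of thioredoxin, was the most abundant, with overlapping FPKM values of 199 ± 30.4 and 157 ± 15.3 (log2 fold change −0.43, adjusted p = 0.131). Glrx, glutaredoxin, rose the furthest, from 3.60 ± 1.21 to 21.9 ± 1.48 (log2 fold change 2.54, adjusted p = 0.00116). The only one called lower was Prdx4, the peroxiredoxin of the endoplasmic reticulum, from 44.5 ± 12.4 to 14.7 ± 0.632 (log2 fold change −1.69, adjusted p = 0.00369). Prdx2, a peroxidase abundant in red cells, was among those called higher, at 1.97.

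Of 9 genes of selenoprotein synthesis and selenium supply, which the TGA codons of Gpx1, Gpx3 and Gpx4 depend on, 3 were called higher and the other 6 were not called, with a median of 0.17. Sephs2, which makes the selenium donor, rose from an FPKM of 5.00 ± 1.74 to 35.5 ± 1.33 (log2 fold change 2.76, adjusted p = 0.00112). Selenop, the selenium carrier, rose from 63.3 ± 19.2 to 180.1 ± 20.2 (log2 fold change 1.45, adjusted p = 0.00415), and the third was Scly at 1.41. The median of this list was −0.18 on TPM.

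Of 9 genes of copper and metal supply and binding, which supply the copper of Sod1 and Sod3 or bind metals, Atp7b and Mt1 were called higher and the other 7 were not called, with a median of 0.05, which was −0.12 with genes under a mean FPKM of 1 left out and −0.10 without 18-month replicate 2. Atox1, a copper chaperone and the most abundant, had an FPKM of 54.5 ± 13.8 and 81.9 ± 4.22 (log2 fold change 0.52, adjusted p = 0.0388, under the fold limit). Mt1, metallothionein, rose from 13.5 ± 2.69 to 32.0 ± 4.81 (log2 fold change 1.17, adjusted p = 0.00669).

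Of 11 genes of heme and iron handling, 3 were called higher and the other 8 were not called, with a median of 0.999. Ftl1, the light chain of ferritin, was the most abundant, at 750, 445 and 571 FPKM and 781, 854 and 856 FPKM. Its log2 fold change was 0.41 (adjusted p = 0.228), with CPM values that overlapped. Blvrb, biliverdin reductase B, known also as a red cell enzyme, rose from 2.69, 8.93 and 2.75 to 36.8, 40.0 and 41.5 (log2 fold change 3.00, adjusted p = 0.00513, and 3.76 without 2-month replicate 2). The others called higher were the iron exporter Slc40a1 at 2.68 and the transferrin receptor Tfrc at 1.69. The largest log2 fold change of the list, 4.89 for Hp, was not called (adjusted p = 0.0581, edgeR). Its FPKM was 0.625, 48.1 and 1.31 at 2 months and 568, 457 and 458 at 18 months. Without 2-month replicate 2, 6 of the 11 were called higher, beside 5007 of all genes, against 3047 with all libraries. Without 2-month replicate 1, 2-month replicate 3 or 18-month replicate 2, only 1 was. All genes called higher then numbered 2672, 2141 and 2119.

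Of 14 other NRF2 target genes, 6 were called higher and 5 lower, with a median of −0.34. Taldo1, an enzyme of the pentose phosphate pathway and the most abundant, rose from an FPKM of 29.4 ± 11.6 to 185 ± 2.42 (log2 fold change 2.60, adjusted p = 0.00150). G6pdx, the first enzyme of that pathway, rose the furthest, from 6.02, 15.6 and 5.50 to 93.0, 73.3 and 73.1 (log2 fold change 3.09, adjusted p = 0.00306, and 3.69 without 2-month replicate 2). It lies on the X chromosome, and age and sex cannot be told apart for this or any other gene here. Me1, malic enzyme, fell the furthest, from 51.2, 23.6 and 39.4 to 4.31, 1.26 and 1.41 (log2 fold change −4.14, adjusted p = 0.00417, and −4.90 without 18-month replicate 1).

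The targets in this list thus moved both ways. The other genes called higher were Pgd, Tkt, Osgin1 and Akr1b3, at 1.97, 2.66, 2.81 and 1.299. The other genes called lower were Ephx1, Cbr1, Aox1 and Ugdh, at −2.21, −1.08, −2.38 and −1.56. The median of this list was 0.11 without 2-month replicate 2, on the other side of 0.

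**Figure D5:**
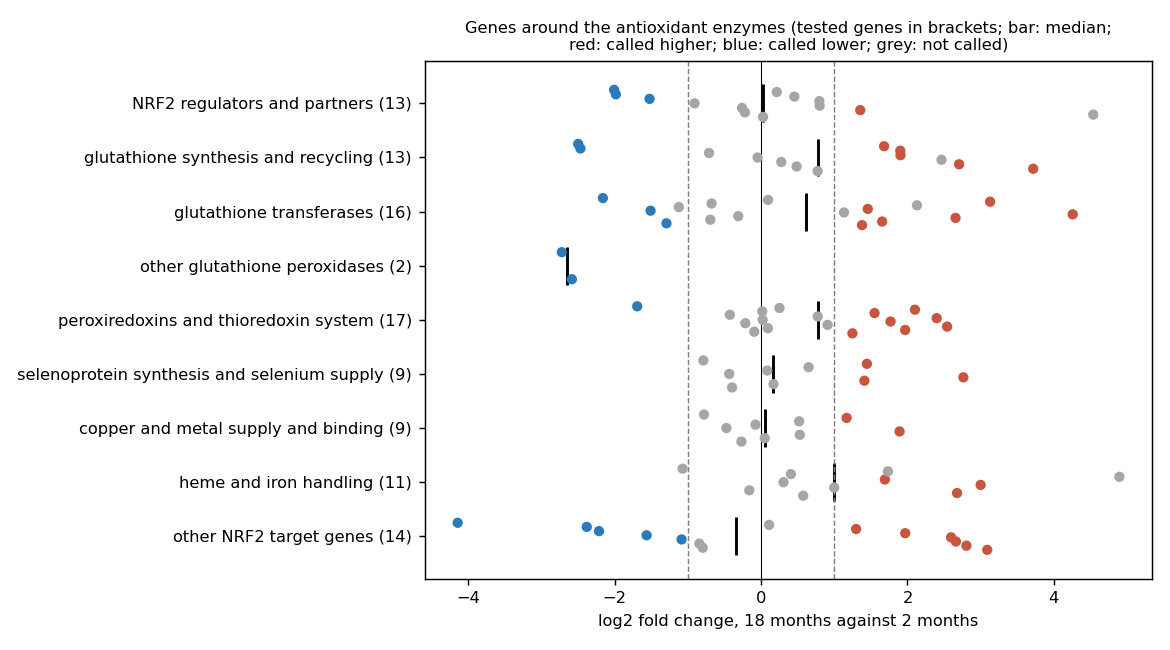
Log2 fold change, 18 months against 2 months, of each tested gene in the 9 lists of related genes; each point is 1 gene, coloured by its call, the black bar is the list's median and dashed lines mark the limit of 1. Called genes lie on both sides for 5 of the 9 lists, and the 2 tested genes among the other glutathione peroxidases lie at −2.72 and −2.58.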

How the data were processed

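RNA sequencing was available for 3 libraries of articular cartilage from 2-month mice and 3 from 18-month mice, grouped by the sample titles. Per the labels, libraries were poly(A)-selected and strand-marked with dUTP, with molecular identifiers in the adapters and paired-end reads. The submitters' processing notes name cutadapt 1.9, HISAT2 2.0.4, UMI-tools, StringTie 1.3.4d, DESeq2 and edgeR without their roles. The build, annotation and strand setting of the counting are not given in the sources used here. Of the 33971 gene identifiers, 99.7% were found in GENCODE M21, and 91.3% of these had the same coordinates there, which points to GRCm38. The coordinates of Sod2 are those of the deposited table and differ from GENCODE M21.

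The authors deposited unnormalized counts per gene and library, and FPKM values, which are scaled by gene length and by library depth. Columns of the authors' own comparisons (fold changes, p-values and q-values) were not used. The number of per-library columns set aside was 0. FPKM implied gene lengths of 1.14 times the union of all exons, within 20% of this for 99.7% of 9253 genes, so levels of genes with long non-coding or retained exons are understated, Sod1 above all.

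The test of counts was edgeR's quasi-likelihood test (version 4.0.16, R 4.3.3) with filterByExpr and TMM, without a replicate block, and was checked on simulated data. The simulated counts had the same spread beyond counting for all genes and no library that stood apart. The check therefore does not cover libraries that stand apart as they do here. Adjustment was by Benjamini and Hochberg's method over 20397 genes. A gene was called at an adjusted p below 0.05 and a log2 fold change of more than 1 in either direction, the limits of the paper. Standard errors were derived from the log2 fold change and the F statistic. Isozyme ratios were compared by two-sided exact permutation tests. Marker lists were described by their share of all counts, whose precision is set by the number of libraries and not by counting at 48171507 to 59085179 counts a library. Members and lists were chosen with earlier results of these data known. Proteins, planned for display, were not analysed here.

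All 10 members are named. In each related list the most abundant gene by mean FPKM is named, with the largest called rise and fall among genes whose mean FPKM reached 1, and for each member the gene most like it. Other genes are named where a count is small, or were picked after their values were seen. The alternatives were median-of-ratios size factors, total counts alone, no filter, a filter at a mean FPKM of 1, TMM without the 100 most abundant genes, DESeq2 1.42.0, limma 3.58.1 with trend on log2(FPKM + 0.1), log2(FPKM + 1), log2(TPM + 0.1) and quantile-normalized FPKM, glmTreat against a fold of 2, no limit on the fold, a replicate block and leaving out each library in turn. Leaving out 2-month replicate 2 and 18-month replicate 1 together, and shares per kilobase of the principal transcript, were added after seeing the data.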

Additional observations from a re-analysis of the deposited data

How the results depend on the processing

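Gpx1, Gpx3 and Hmox1 were called in the same direction in all 20 alternatives, and Sod1 in none of them. The members called higher numbered 5 with total counts alone, with DESeq2 and with limma on log2(FPKM + 0.1), 6 with no limit on the fold, 2 on TPM, with quantile normalization and with glmTreat, and 3 to 4 when a library was left out. The members called lower numbered 3 on TPM and 1 to 2 when a library was left out. Sod3 lost its call without 18-month replicate 3, and over the libraries left out its log2 fold change ran from −4.57 to −3.06, and it was −4.88 without 2-month replicate 2 and 18-month replicate 1 together.

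Gpx4 was called, with a log2 fold change of 1.03 with no filter, 1.05 with median-of-ratios size factors, 1.08 with total counts alone, DESeq2 and limma on log2(FPKM + 1), 1.01 with TMM without the 100 most abundant genes, 1.09 with limma on log2(FPKM + 0.1) and 0.997 with no limit on the fold. It ran from 0.89 to 1.17 when a library was left out. Cat was called at 1.005 with total counts alone, 1.02 with DESeq2, 1.03 with limma on log2(FPKM + 0.1), 0.94 with no limit on the fold, 1.14 without 2-month replicate 2 and 18-month replicate 1 together, and ran from 0.84 to 1.12 when a library was left out. Sod2 was called at 0.34 with no limit on the fold and stood at −0.014 on TPM. Nqo1 was called at −1.02 on TPM. Nfe2l2 was not called at 0.86 on TPM, at 0.95 with quantile normalization and at 1.22 with glmTreat. Sod1 ran from −0.33 to 0.0093 when a library was left out. Where the limit on fold was changed, the test's construction gives the change, and elsewhere the cause was not tested.

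Over all genes, those called higher numbered 1366 with glmTreat, 4769 with no limit on the fold, 4931 without 2-month replicate 2 and 18-month replicate 1 together, and 2095 to 5007 when a library was left out, the highest without 2-month replicate 2. Those called lower numbered 2217 with limma on log2(FPKM + 1) and 2667 with glmTreat. Of the genes called, 41.2% were higher, against 57.8% with limma on log2(FPKM + 1) and 52.2% without 2-month replicate 2. TPM moved the median of all genes to −0.33 and quantile normalization to −0.10. Over the lists of related genes 21 were called higher and 9 lower with glmTreat, and their median, 0.36, was 0.13 on TPM and 0.27 with quantile normalization and ran from 0.38 to 0.59 when a library was left out. List medians changed sign to −0.13 (NRF2 regulators) and −0.18 (selenoprotein genes) on TPM, to −0.12 with genes under a mean FPKM of 1 left out (copper genes), and to 0.064 without 2-month replicate 2 and 18-month replicate 1 together (other NRF2 targets). When a library was left out they ran from −0.037 to 0.13 for NRF2 regulators, from −0.10 to 0.54 for copper genes and from −0.54 to 0.11 for other NRF2 targets.

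Same-numbered libraries of the 2 ages had deviations that correlated at 0.03, 0.04 and −0.02, and not every library correlated best with its own number, so the numbers were not taken to pair them. With a replicate block, 2523 genes were called higher and 3509 lower, and Gpx4 was added to the members called, at a log2 fold change of 1.01. These libraries cannot separate age from sex or from the makeup of the tissue, and with 3 libraries an age the exact tests stop at p = 0.1.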

Other observations

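The markers of other tissues that a dissected joint could hold did not all move one way. Osteoblast and osteocyte markers held 0.505%, 1.75% and 0.585% of counts in the 2-month libraries and 0.340% to 0.359% at 18 months, with 2-month replicate 2 apart from the rest. The share does not stand for each marker. Of these 10 markers, 0 were called higher and 3 lower, beside 14.9% and 21.3% of all genes tested. Without 2-month replicate 2, 5 were called higher and 3 lower, beside 5007 and 4576 of all genes. Markers of synovial and tendon fibroblasts held 0.288% to 0.357% and 0.0162% to 0.0436%, and those of skeletal muscle 0.00863% to 0.0169% and at most 0.000803%. Of the 10 fibroblast markers 1 was called higher and 6 lower, and of the 8 muscle markers tested 0 and 6. Markers of B lymphocytes and plasma cells held 0.00374% to 0.0605% and 0.243% to 0.350%, those of endothelial cells 0.00216% to 0.0324% and 0.0374% to 0.0433%, and those of adipocytes 0.00273% to 0.0204% and 0.0162% to 0.0223%. In these 3 lists 2 of 12, 2 of 9 and 1 of 6 markers tested were called higher, and 0, 0 and 1 lower. Without 2-month replicate 2, 11, 8 and 4 were called higher, beside 5007 of all genes.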
